A study of Mus musculus with 12 samples.

Results

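The mouse Schlafen genes Slfn1, Slfn2, Slfn3, Slfn4, Slfn5, Slfn8 and Slfn9 were followed by their symbols through 12 RNA sequencing libraries. These are 7 of the 55573 genes in the tables. Schlafen genes encode proteins of the cytoplasm and nucleus that act on RNA and on cell growth, and several are induced by type I interferons, the cytokines that set the antiviral state through a receptor, JAK kinases and STAT and IRF transcription factors. The shorter members (Slfn1 and Slfn2), the intermediate ones (Slfn3 and Slfn4) and the longer ones (Slfn5, Slfn8 and Slfn9) share a core domain, and the longer ones add a helicase-like end. Most work on them in the mouse concerns lymphocytes and macrophages, and fibroblasts are a further place where interferon raises some of them.

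The libraries came from embryonic fibroblasts carrying SV40 large T antigen for immortality, untreated and taken 24 h after plating, with 3 cultures in each of 4 groups. The Fadd/Mlkl knockout group is Fadd-/- Mlkl-/- cells with an empty vector, and its comparison group is the same cells with Fadd put back. The Casp8/Mlkl knockout group is Casp8-/- Mlkl-/- cells with an empty vector, and its comparison group is the same cells with Casp8 put back. FADD is the adaptor that recruits caspase-8, caspase-8 restrains necroptosis, and MLKL carries necroptosis out, so all 4 groups, as labelled, lack the last step of that death. Each genotype is represented by 1 immortalised line as far as the labels say, so genotype and line cannot be told apart between the Fadd and Casp8 lines.

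Libraries held 33918359 to 59388559 counts, and a count of 0 allowed up to 0.0505 to 0.0884 CPM (counts scaled to library size), counting error only. Fadd was at 0.02, 0.01 and 0.01 TPM (a transcript level scaled for length and library size) in Fadd/Mlkl knockout cells, against 4.24, 3.05 and 3.99 TPM with Fadd put back. Casp8 was at 3.51, 3.11 and 3.34 TPM in Casp8/Mlkl knockout cells, against 28.62, 70.80 and 76.48 TPM with Casp8 put back. Mlkl transcripts were present at 1.43 to 6.22 TPM in all 12 libraries, a level that does not show whether protein is made. Of 11 fibroblast markers, 9 had counts in both Fadd line groups, where Thy1 and Lum were at 0, and 11 and 10 had counts in the Casp8/Mlkl knockout and Casp8 put-back groups. Their summed level was 504.8 to 704.2 TPM in Fadd/Mlkl knockout cells, 820.7 to 1013 TPM with Fadd put back, 1655 to 3273 TPM in Casp8/Mlkl knockout cells and 2115 to 2606 TPM with Casp8 put back. Most of the sum in Fadd/Mlkl knockout cells was Vim, at 431.57 to 556.10 TPM. Col1a2 stood at 0.07 to 0.26 TPM there, against 14.11 to 51.81 TPM with Fadd put back. Of the markers with counts in the Fadd line, Pdgfrb and Dcn had higher means in the knockout and the others had lower means.

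All 7 genes lie on chromosome 11 of mouse genome mm10 between 82951349 and 83215154, a span of 263.8 kb that holds no other protein-coding gene among its 21 annotated genes. Slfn5 (chr11:82951349-82964840), Slfn2 (chr11:83065112-83070678), Slfn1 (chr11:83116849-83122670), Slfn4 (chr11:83175186-83190216) and Slfn3 (chr11:83191330-83215154) are on the plus strand. Slfn9 (chr11:82978390-82991830) and Slfn8 (chr11:83002158-83020810) are neighbours on the minus strand, and their coding sequences, 2730 bases each, are 92.7% identical. Slfn8 and Slfn2 carry the differences described next, while the knockout and put-back groups of Slfn9 overlapped in both lines. Slfn5 is the further long member that was nearly silent. The promoters of Slfn8, Slfn9, Slfn2 and Slfn5 are shown. They are 250 bases before to 50 after the RefSeq start on GRCm38.p6, read 5′ to 3′ on the gene's own strand, at chr11:83020761-83021060 (minus) for Slfn8, chr11:82991781-82992080 (minus) for Slfn9, chr11:83064862-83065161 (plus) for Slfn2 and chr11:82951852-82952151 (plus) for Slfn5. Capitals mark matches on either strand to GAAA, then any 2 bases, then GAAA, the core letters of the interferon-stimulated response element bound by IRF and STAT complexes.
Slfn8: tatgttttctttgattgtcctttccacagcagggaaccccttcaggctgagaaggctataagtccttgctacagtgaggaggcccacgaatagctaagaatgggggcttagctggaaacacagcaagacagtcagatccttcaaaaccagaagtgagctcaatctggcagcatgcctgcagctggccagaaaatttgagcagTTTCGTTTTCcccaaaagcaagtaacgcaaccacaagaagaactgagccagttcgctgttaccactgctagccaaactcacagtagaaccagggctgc
Slfn9: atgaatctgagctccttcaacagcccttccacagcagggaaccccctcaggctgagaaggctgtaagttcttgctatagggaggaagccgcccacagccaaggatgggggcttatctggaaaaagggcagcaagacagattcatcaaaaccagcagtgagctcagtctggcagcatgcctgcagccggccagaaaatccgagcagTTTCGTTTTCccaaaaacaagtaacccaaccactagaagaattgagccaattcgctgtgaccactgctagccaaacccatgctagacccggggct
Slfn2: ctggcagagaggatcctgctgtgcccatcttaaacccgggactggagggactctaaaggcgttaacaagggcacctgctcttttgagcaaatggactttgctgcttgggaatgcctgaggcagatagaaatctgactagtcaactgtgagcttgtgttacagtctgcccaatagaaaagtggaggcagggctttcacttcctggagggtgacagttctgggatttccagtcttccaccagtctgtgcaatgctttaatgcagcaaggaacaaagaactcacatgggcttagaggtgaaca
Slfn5: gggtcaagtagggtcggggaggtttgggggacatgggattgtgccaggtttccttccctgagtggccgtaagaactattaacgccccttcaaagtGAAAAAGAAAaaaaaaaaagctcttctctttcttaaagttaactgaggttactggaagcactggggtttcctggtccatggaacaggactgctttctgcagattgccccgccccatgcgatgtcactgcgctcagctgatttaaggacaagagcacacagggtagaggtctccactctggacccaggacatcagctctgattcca

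Slfn8 and Slfn9 hold the same match, TTTCGTTTTC, on the reverse strand, 48 to 39 bases before the start in Slfn8 and 45 to 36 bases before it in Slfn9. RefSeq gives Slfn8 a second start, with a window at chr11:83020673-83020972, from which the same match lies 136 to 127 bases upstream. Their promoters are 88.9% identical over 271 aligned bases. Slfn5 holds GAAAAAGAAA, 155 to 146 bases before its start. No match lies in the windows of Slfn1, Slfn2, Slfn3 and Slfn4. The same letters occur in 3.443% of all 32851 RefSeq promoters of this length. The core of the interferon gamma-activated site, TTCNNNGAA on either strand, occurs in 8.298% of those promoters and in none of the 7 genes' windows. The motifs do not overlap in these windows, since the second has no match. A match or its absence describes the letters of the window only.

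In these fibroblasts 3 of the 7 genes were expressed above the filter on low counts, and they differed widely in level. Slfn9 was the highest in every library at 13.15 to 48.18 TPM. Slfn8, which is nearly its copy, varied from 0.13 to 23.03 TPM. Slfn2, known in the mouse for keeping T cells quiescent, reached at most 1.29 TPM. The other 4 genes each had under 10 counts over all 12 libraries.

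Slfn9 stood at 48.18, 26.50 and 20.01 TPM in Fadd/Mlkl knockout cells and at 20.41, 23.78 and 22.71 TPM with Fadd put back, in the order of replicates 1, 2 and 3 that is kept throughout. It stood at 13.15, 21.06 and 26.67 TPM in Casp8/Mlkl knockout cells and at 15.40, 17.08 and 18.36 TPM with Casp8 put back. The knockout and put-back groups overlapped in both lines, and the high value was replicate 1 of the Fadd/Mlkl knockout. Group means were 31.6 ± 14.8 TPM in Fadd/Mlkl knockout cells, 22.3 ± 1.7 TPM with Fadd put back, 20.3 ± 6.8 TPM in Casp8/Mlkl knockout cells and 17.0 ± 1.5 TPM with Casp8 put back (SD, n = 3 each). No 2 groups that neighbour each other in this order were separated.

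Slfn8 stood at 23.03, 9.05 and 7.12 TPM in Fadd/Mlkl knockout cells, against 0.32, 1.91 and 2.10 TPM with Fadd put back. It stood at 0.64, 2.87 and 4.03 TPM in Casp8/Mlkl knockout cells, against 0.41, 0.13 and 0.22 TPM with Casp8 put back. Every knockout library lay above every put-back library of its own line. Group means were 13.1 ± 8.7 TPM in Fadd/Mlkl knockout cells, 1.44 ± 0.98 TPM with Fadd put back, 2.51 ± 1.72 TPM in Casp8/Mlkl knockout cells and 0.253 ± 0.143 TPM with Casp8 put back (SD, n = 3 each). In the order of means, the Fadd/Mlkl knockout libraries lay above all others, and the Casp8/Mlkl knockout and Fadd put-back groups overlapped, as did the Fadd and Casp8 put-back groups.

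Slfn2 had 207, 83 and 139 counts in Fadd/Mlkl knockout cells, against 0, 10 and 11 counts with Fadd put back. In Casp8/Mlkl knockout cells it had 2, 7 and 14 counts, against 0, 2 and 0 counts with Casp8 put back. As levels these were 1.29, 0.59 and 1.12 TPM in Fadd/Mlkl knockout cells and at most 0.19 TPM in each of the other libraries. Slfn2 passed the filter through the Fadd/Mlkl knockout libraries, the group where it is high, so counts of genes over those that passed are given here as description only.

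**Figure D1:**
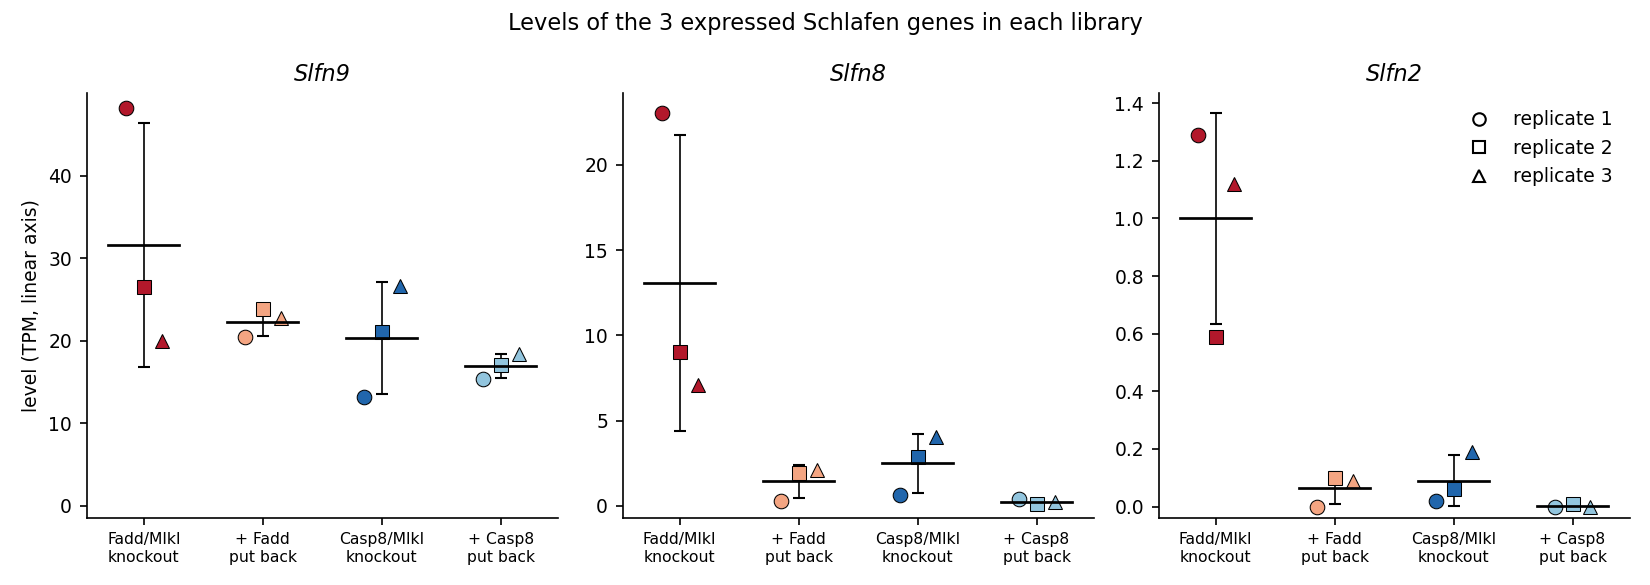
Level of Slfn9, Slfn8 and Slfn2 (TPM, linear axes that differ between panels) in each library of the 4 groups; marker shapes are replicates, horizontal bars are group means and whiskers are 1 SD (n = 3), cut at 0. Slfn8 and Slfn2 lie higher in every knockout library than in the put-back libraries of the same line, while the Slfn9 groups overlap. For Slfn2 in the Casp8 line this rests on 2 counts in knockout replicate 1 against 2 counts in put-back replicate 2, the deeper library.

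Slfn1, Slfn3, Slfn4 and Slfn5 were at or near the limit of detection. Slfn1, the founding member described in thymocytes, had 0 counts in every library. Slfn3 had 9 counts in all, of which 2 were in replicate 2 of the Fadd/Mlkl knockout and 1 and 6 in replicates 1 and 3 with Fadd put back. Slfn4, known from mouse macrophages and other myeloid cells, had 5 counts, all of them in replicate 1 of the Fadd/Mlkl knockout. Slfn5 had 8 counts, with 3 in replicate 3 of the Fadd/Mlkl knockout, 1 in replicate 2 with Fadd put back and 4 in replicate 3 of the Casp8/Mlkl knockout. No fold is given for these 4 genes. Slfn14 and Slfnl1, further genes with a Schlafen name, had 0 to 4 counts per library. Slfn10-ps, an unprocessed pseudogene beside Slfn8, had 146, 47 and 41 counts in Fadd/Mlkl knockout cells, against 5, 6 and 15 counts with Fadd put back. It had 3, 10 and 5 counts in Casp8/Mlkl knockout cells, against 2, 0 and 5 counts with Casp8 put back.

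Near-identical copies can share reads. Of the 4284 windows of 100 bases in Slfn8 transcripts, 1.17% also occur in Slfn9, and 3.38% occur in any other gene with a Schlafen name. For Slfn9 the latter share is 3.71%, for Slfn10-ps 7.84% and for Slfn2 0.13%. All 84 values of the 7 genes were whole numbers exactly. How many reads matched several copies is not in the gene tables, so the split between Slfn8, Slfn9 and Slfn10-ps is uncertain to that extent.

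Taking Fadd/Mlkl knockout over Fadd put back, none of the 3 tested Schlafen genes passed an adjusted p under 0.05 in edgeR's quasi-likelihood test, in which 1.52% of all 16396 genes tested were called in either direction. At an unadjusted p under 0.05, 2 of the 3 were higher, against 4.4% of all genes, and the same number lay above with no overlap between groups, against 7.79% of all genes. DESeq2 called 2, Slfn2 and Slfn8, and called 3.68% of the genes it tested. Slfn8 had a log2 change of 3.33 (SE 0.857, 95% interval 1.44 to 5.21, 10.02-fold, edgeR adjusted p = 0.104). Slfn2 had a log2 change of 4.08 (SE 1.02, interval 1.84 to 6.33, edgeR adjusted p = 0.0929). The estimate for Slfn9 was 0.64 (SE 0.32, interval -0.07 to 1.34, edgeR adjusted p = 0.573), and without replicate 1 of the Fadd/Mlkl knockout it was 0.15.

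In the Casp8 line, taking Casp8/Mlkl knockout over Casp8 put back, none of the 3 was called by edgeR, where 0.0061% of all genes tested were called. At an unadjusted p under 0.05, 2 of the 3 were higher, against 4.12% of all genes, and 2 lay above with no overlap, against 5.78%. For Slfn2 the lack of overlap rests on 2 counts in knockout replicate 1 against 2 counts in put-back replicate 2. These are 0.0461 and 0.0359 CPM, both within what a count of 0 allowed. DESeq2 called 1, Slfn8, and called 0.748% of the genes it tested. Slfn8 had a log2 change of 3.31 (SE 0.877, interval 1.38 to 5.24, 9.92-fold, edgeR adjusted p = 0.485). Slfn2 rested on 23 counts in Casp8/Mlkl knockout cells and 2 counts with Casp8 put back, which is 14.9 times as many per total count (95% counting interval 3.67 to 130, edgeR adjusted p = 0.701). The estimate for Slfn9 was 0.25 (SE 0.319, interval -0.45 to 0.95, edgeR adjusted p = 0.999).

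The changes in both lines were then set against each other. The Fadd line change minus the Casp8 line change was 0.01 for Slfn8 on the log2 scale (SE 1.23, interval -2.68 to 2.71), 0.35 for Slfn2 (SE 1.69, interval -3.37 to 4.07) and 0.38 for Slfn9 (SE 0.451, interval -0.61 to 1.38). The edgeR adjusted p was 1 for each, and 0.842% of all genes were called. At an unadjusted p under 0.05 none of the 3 passed, against 7.4% of all genes, and DESeq2 called none of them and 2.15% of the genes it tested. The intervals span differences of several fold in either direction for Slfn8 and Slfn2, so this does not show that the lines respond alike. As a comparison added after the values were seen, the average of the lines' changes was tested in the same fit, where 0.543% of all genes were called. Slfn8 rose by 3.32 (SE 0.613, interval 1.97 to 4.67, 9.97-fold, edgeR adjusted p = 0.0406). With the replicate number as a block this adjusted p was 0.079, and 0.132 where the block was nested in the line, neither past the threshold. Slfn2 had an average of 3.91 (SE 0.831, edgeR adjusted p = 0.0786) and Slfn9 of 0.45 (SE 0.226, edgeR adjusted p = 0.602).

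**Figure D2:**
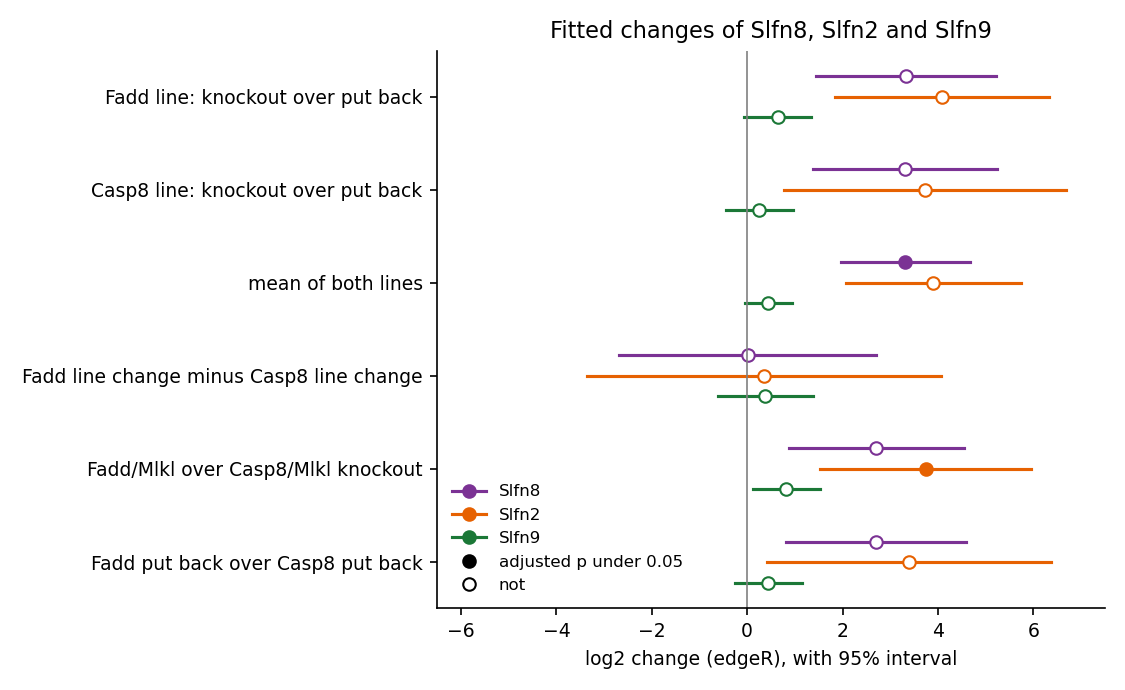
Fitted log2 change (edgeR) of Slfn8, Slfn2 and Slfn9 for 6 comparisons, with 95% intervals as lines; filled markers have an adjusted p under 0.05. The filled markers are Slfn8 for the mean of both lines (3.32) and Slfn2 for Fadd/Mlkl over Casp8/Mlkl knockout (3.75), a gene that passed the low-count filter through the Fadd/Mlkl knockout.

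The replicates of Slfn8 differed in a way that the group averages conceal. As a ratio of CPM between same-numbered libraries, Fadd/Mlkl knockout over Fadd put back, Slfn8 was at 103, 5.12 and 3.51 for replicates 1, 2 and 3. In the Casp8 line, Casp8/Mlkl knockout over Casp8 put back, the ratios were 1.61, 22.3 and 17.0. Replicate 1 thus had the largest ratio in the Fadd line and the smallest in the Casp8 line. Slfn9 gave ratios of 2.73, 1.15 and 0.947 in the Fadd line. In the Casp8 line its ratios were 0.885, 1.32 and 1.32, again highest and lowest in replicate 1. Without all 4 replicate 1 libraries, the Fadd line change of Slfn8 was smaller than the Casp8 line change by a log2 difference of -2.19 (edgeR adjusted p = 0.00326), where all 12 libraries gave 0.01. That fit of 8 libraries called 11.2% of all genes tested for this difference, against 0.842% with all 12 libraries. Replicate 1 of the Fadd/Mlkl knockout also had the lowest share of counts in protein-coding genes, 81.4%, against 85.0% to 88.8% in the other 11 libraries, and its part in the result was not tested. Without that library the Slfn8 change in the Fadd line was 2.58.

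The ratio of Slfn9 to Slfn8 within a library does not depend on how libraries are scaled to each other. It was 2.09, 2.93 and 2.81 in Fadd/Mlkl knockout cells, against 63.8, 12.5 and 10.8 with Fadd put back. In Casp8/Mlkl knockout cells it was 20.5, 7.34 and 6.62, against 37.6, 131 and 83.5 with Casp8 put back. The ratio was lower in every knockout library than in any put-back library of its line. On the log2 scale it averaged 1.37 ± 0.26 in Fadd/Mlkl knockout cells and 4.36 ± 1.42 with Fadd put back, a difference of -2.99, and 3.32 ± 0.90 in Casp8/Mlkl knockout cells and 6.22 ± 0.91 with Casp8 put back, a difference of -2.90 (SD, n = 3 each). The exact two-sided permutation p was 0.1 in each line, which is the smallest that 3 libraries against 3 can give. Slfn9 made up 66.4% to 73.3% of the summed TPM of the 7 genes in Fadd/Mlkl knockout cells and 91.0% to 98.4% with Fadd put back. It made up 86.3% to 95.2% in Casp8/Mlkl knockout cells and 97.4% to 99.2% with Casp8 put back.

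**Figure D3:**
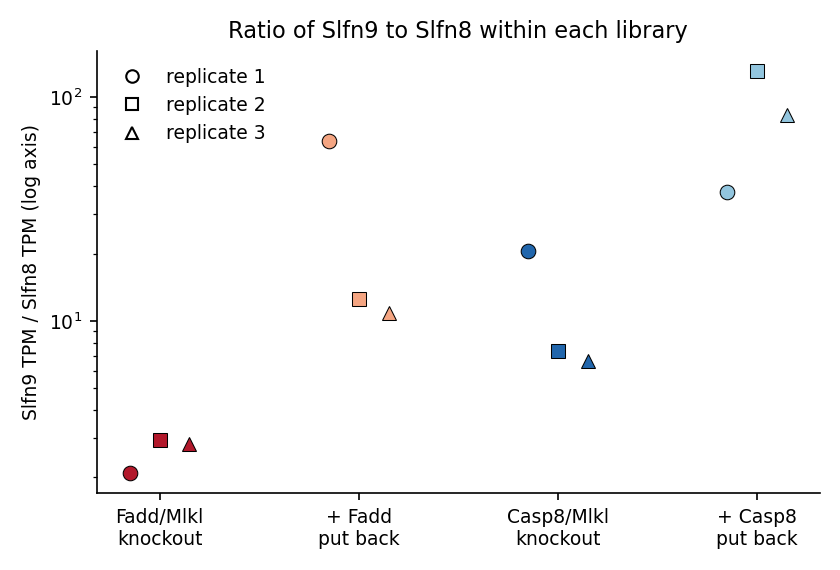
Slfn9 TPM divided by Slfn8 TPM in each library (log axis), by group, with replicates as marker shapes. The Fadd/Mlkl knockout libraries lie between 2.09 and 2.93, below all others, and the Casp8 put-back libraries lie between 37.6 and 131.

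The knockout groups also differed from each other, and they share libraries with the comparisons within a line. Taking Fadd/Mlkl over Casp8/Mlkl knockout, Slfn2 was the 1 member called, higher by a log2 change of 3.75 (SE 1.01, interval 1.54 to 5.96, 13.4-fold, edgeR adjusted p = 0.0369), where 10.5% of all genes were called in either direction and 3.46% higher. Slfn2 had passed the low-count filter through the Fadd/Mlkl knockout, the higher group here, so the call is given as description; with no filter its adjusted p in edgeR was 0.0221. The call was lost, with adjusted p-values of 0.0508 to 0.148, when any 1 of 9 libraries was left out. It held without replicates 1 and 3 with Fadd put back, each alone, and without replicate 1 with Casp8 put back. Without replicate 3 of the Casp8/Mlkl knockout the Slfn2 change was 4.68. Slfn8 had a change of 2.71 (SE 0.834, edgeR adjusted p = 0.0637), which was 1.97 without replicate 1 of the Fadd/Mlkl knockout and 1.51 without all replicate 1 libraries. Slfn9 had a change of 0.82 (SE 0.32, edgeR adjusted p = 0.137). Slfn2 and Slfn8 did not overlap between these groups, against 13% of all genes that lay above without overlap, and Slfn9 did overlap. The pseudogene Slfn10-ps was higher by 3.26 (SE 0.822, edgeR adjusted p = 0.0283). It too passed the low-count filter through the Fadd/Mlkl knockout, so this call is also given as description.

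Between the put-back groups, Fadd put back over Casp8 put back, none of the 3 was called by edgeR, against 6.34% of all genes. At an unadjusted p under 0.05, 2 of the 3 were higher, against 9.96% of all genes. DESeq2 called 1, and called 11% of the genes it tested. Slfn8 was 6.49-fold higher by its estimate (log2 interval 0.81 to 4.59, edgeR adjusted p = 0.0929). Slfn9 was higher by a log2 change of 0.44 (SE 0.319, edgeR adjusted p = 0.486). Slfn2 rested on 21 counts with Fadd put back and 2 counts with Casp8 put back, which is 13.0 times as many per total count (95% counting interval 3.18 to 114, edgeR adjusted p = 0.175). That interval covers counting error only and leaves out the spread between cultures. Slfn9 was the only one of the 3 whose put-back groups did not overlap, at 20.41 to 23.78 TPM with Fadd put back and 15.40 to 18.36 TPM with Casp8 put back, against 12.5% of all genes that lay above without overlap.

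Interferon signalling genes and interferon-stimulated genes, 33 in all of which 32 were tested, were counted beside the Schlafen genes. In the Fadd line 1 of the 32 was called, Oasl1, an antiviral protein of the oligoadenylate synthetase family that in the mouse restrains Irf7 translation, higher by 3.94 (SE 0.63, edgeR adjusted p = 0.00917). That count was 0 with the replicate number as a block within each line. At an unadjusted p under 0.05, 22 of the 32 were higher, against 4.4% of all genes, and none was lower. DESeq2 called 8, and called 3.68% of the genes it tested. The list's median change was 2.05, against 0.004 for all genes. In the Casp8 line none was called by edgeR. There 17 of the 32 were higher at an unadjusted p under 0.05, against 4.12% of all genes, and none was lower. DESeq2 called 9, and called 0.748% of the genes it tested. The median change in this line was 2.27, against 0.008 for all genes. The lowest p-values belonged to Oasl2 (log2 change 3.88, edgeR adjusted p = 0.505) and the RNA-sensing synthetase Oas1a (4.92, edgeR adjusted p = 0.549). No gene of the lists was called for the difference between the lines' changes, where 1 passed at an unadjusted p under 0.05. The lowest p-values there were those of Ifit2, an RNA-binding antiviral protein (1.25, edgeR adjusted p = 0.502), and of the transcription factor Irf3 (0.44, edgeR adjusted p = 0.838). For the average of the lines' changes Oasl1 was the 1 gene called (3.14, edgeR adjusted p = 0.00922).

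Between the knockout groups 15 of the 32 were higher in the Fadd/Mlkl knockout, against 3.46% of all genes, and 1 was lower, with a median of 2.85. Oasl1 (log2 change 5.17, edgeR adjusted p = 0.000953), Oas2 (8.61, edgeR adjusted p = 0.00236) and Oas3 (8.82, edgeR adjusted p = 0.00334) rose, as did Irf7, the transcription factor that amplifies interferon production (4.56, edgeR adjusted p = 0.0188). Jak1, a kinase of the interferon receptors, was the lower one (-0.53, edgeR adjusted p = 0.0244). Between the put-back groups 14 of the 32 were higher with Fadd put back and 1 was lower, again Jak1 (-0.50, edgeR adjusted p = 0.0471), where 2.93% of all genes were called higher. Oasl1 (3.56, edgeR adjusted p = 0.0132), Oas1a (7.20, edgeR adjusted p = 0.0176) and Oasl2 (5.07, edgeR adjusted p = 0.023) were among the higher ones. Oas3 had 465 counts with Fadd put back and 0 counts with Casp8 put back, at least 192-fold higher when 3 counts over that group are taken as the floor. The synthetase genes resemble each other, and reads shared among them could be split between them.

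The mean log2 CPM of the 20 interferon-stimulated genes was 7.35, 5.21 and 5.20 in Fadd/Mlkl knockout cells, against 1.64, 3.95 and 3.96 with Fadd put back. It was 0.53, 2.82 and 2.58 in Casp8/Mlkl knockout cells, against 0.21, -1.24 and -0.87 with Casp8 put back. Replicate 1 stood apart here in the same places as for Slfn8. It was highest in the Fadd/Mlkl knockout and lowest with Fadd put back. In the Casp8 line it was lowest in the knockout and highest with Casp8 put back. Of Ifnb1, the interferon gene on the list, 35 counts lay in replicate 1 of the Fadd/Mlkl knockout and 0 to 2 in each other library, and it did not pass the filter.

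**Figure D4:**
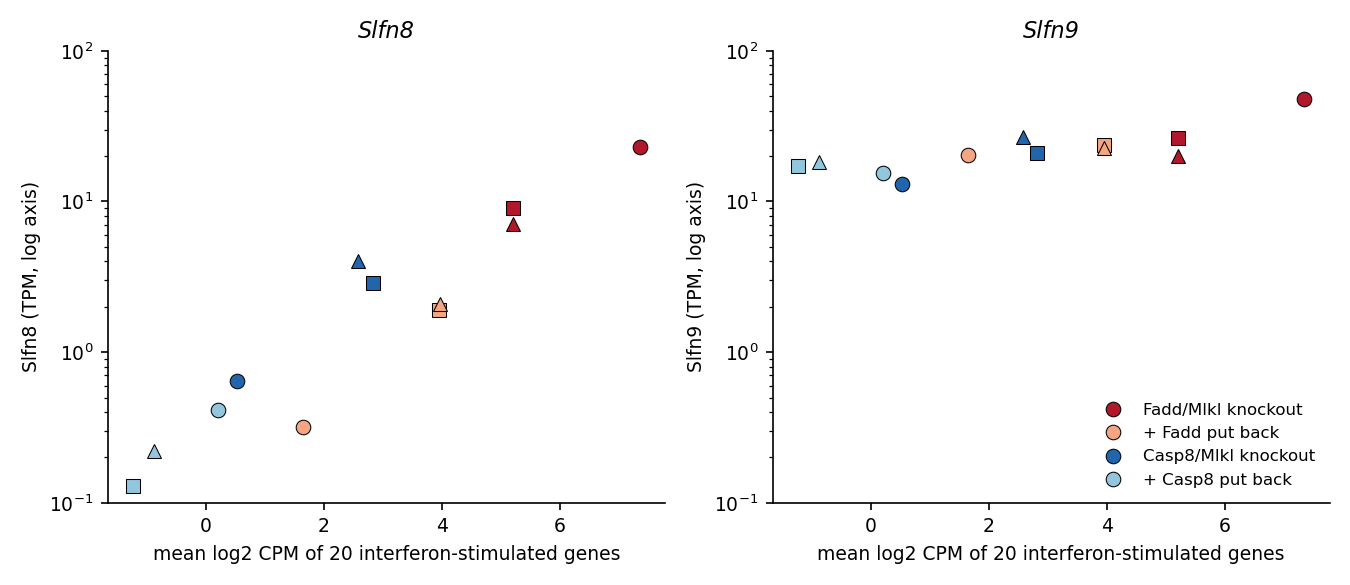
Level of Slfn8 and Slfn9 (TPM, log axes) in each library against the mean log2 CPM of 20 interferon-stimulated genes; colours are groups, and circles, squares and triangles are replicates 1, 2 and 3. Slfn8 spans 0.13 to 23.03 TPM and Slfn9 spans 13.15 to 48.18 TPM over the same libraries.

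Markers of other cell types were read beside the Schlafen genes, and their part in the results was not tested. The 10 leukocyte markers summed to 1.63 to 4.11 TPM in Fadd/Mlkl knockout cells, 2.36 to 5.07 TPM with Fadd put back, 1.33 to 2.92 TPM in Casp8/Mlkl knockout cells and 0.55 to 1.23 TPM with Casp8 put back. In Fadd/Mlkl knockout cells 7 of the 10 had any count, and Ptprc, Cd3e and Adgre1, which define leukocytes, T cells and macrophages, were at 0. Most of the sum there came from Coro1a, an actin regulator, at 2.63, 1.73 and 1.33 TPM, against 3.62, 2.35 and 2.00 TPM with Fadd put back. Lyz2, a lysozyme of myeloid cells, stood at 1.34, 0.81 and 0.18 TPM in Fadd/Mlkl knockout cells, against 1.32, 0.49 and 0.10 TPM with Fadd put back. In Casp8/Mlkl knockout cells 6 of the 10 markers had any count. There Cd3e was at 0, and Ptprc and Adgre1 had 3 counts each, all in replicate 1. Coro1a stood at 2.21, 1.12 and 1.25 TPM in Casp8/Mlkl knockout cells, against 1.06, 0.41 and 0.43 TPM with Casp8 put back. Lyz2 had 27, 0 and 3 counts in Casp8/Mlkl knockout cells, against 13, 0 and 0 counts with Casp8 put back. Endothelial markers summed to at most 0.15 TPM in any library. Epithelial markers summed to 0.38 to 2.05 TPM in Fadd/Mlkl knockout cells, 2.68 to 15.83 TPM with Fadd put back, 2.33 to 6.55 TPM in Casp8/Mlkl knockout cells and 1.68 to 2.33 TPM with Casp8 put back. In bulk RNA, more cells with a transcript and more transcript per cell cannot be told apart.

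The genes whose log2 CPM over the 12 libraries was most like each Schlafen gene, by Pearson correlation across 16395 other tested genes, are given as description, since the libraries share groups and replicate numbers. For Slfn8 they were Iigp1 (r = 0.983), a GTPase induced by interferons, the processed pseudogene BC023105 (0.982) and Rsad2 (0.977), which encodes the antiviral enzyme viperin. For Slfn2 they were F830016B08Rik (0.954), Cmpk2 (0.952), a nucleotide kinase gene beside Rsad2, and Iigp1 (0.945). For Slfn9 they were Herc6 (0.983), an ISG15 ligase in the mouse, Znfx1 (0.955), an RNA helicase, and Ube2l6 (0.954), the ISG15 conjugating enzyme. Among the members, Slfn2 and Slfn8 correlated at 0.94, Slfn8 and Slfn9 at 0.798 and Slfn2 and Slfn9 at 0.735. The correlations of their deviations from group means were 0.724, 0.665 and 0.432 for the same pairs. In the Fadd line Iigp1 had a log2 change of 3.53 (SE 1.06) and Rsad2 of 3.73 (SE 1.11), while Herc6 had 1.07 (SE 0.406) and Znfx1 0.90 (SE 0.4). In the Casp8 line these were 3.99 (SE 1.2), 4.15 (SE 1.28), 0.50 (SE 0.404) and 0.31 (SE 0.398). None of these 4 genes had an edgeR adjusted p under 0.05 in either line.

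Of 12 listed genes around the cluster 7 were tested, and their log2 changes ran from -0.55 to 0.20 in the Fadd line and from -0.25 to 0.28 in the Casp8 line. None was called in either line, in the difference of the lines or between the put-back groups, where 1, 0, 1 and 0 were lower at an unadjusted p under 0.05. Their median log2 change was -0.38 in the Fadd line and -0.02 in the Casp8 line. Between the knockout groups Ap2b1, a subunit of the clathrin adaptor, fell by 0.61 on the log2 scale (SE 0.141, edgeR adjusted p = 0.0199). Before the cluster, Nle1 had a log2 change of -0.13 in the Fadd line (edgeR adjusted p = 1), and Unc45b, the nearest coding gene before Slfn5, had 0 counts.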

How the data were processed

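RNA sequencing was analysed in 12 libraries, 3 per group. Per the labels' protocols, reads of stranded total RNA libraries were trimmed by Cutadapt under Trim Galore (0.5.0 per the submitters' processing notes), aligned with STAR 2.7.5a to mm10 with GENCODE M22 and counted with RSEM. The authors deposited RSEM expected counts and TPM per gene, and both were used here. FPKM values and a table of retroviral reading frames were not used here. The labels call the cultures independent. Each table has 55665 rows, of which 92 spike-in rows were left out. Expected counts were rounded, filtered with edgeR's filterByExpr at a minimum count of 10 (16396 genes) and TMM-scaled. All libraries entered 1 quasi-likelihood fit with a mean for each group (edgeR 4.0.16, R 4.3.3, common biological coefficient of variation 0.37), with Benjamini-Hochberg adjustment over all genes tested. The scripts were tested on simulated data. Alternatives used limma 3.58.1, DESeq2 1.42.0, other size factors, no filter, replicate blocks, fewer groups in the fit and left-out libraries.

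Depth was 33918359 to 59388559 counts per library, and intervals on counts cover counting error only. Standard errors are the fitted change over the root of F, and that of a difference between lines is the root of the summed squares. Gene positions are from GENCODE M21 on the same genome, and promoters from RefSeq on GRCm38.p6, where all 7 symbols matched. The main fit did not pair libraries. Same-numbered libraries deviated together within a line, more weakly in the Casp8 line, and ratios between them were given there. The correlations were 0.622, 0.331 and 0.584 for the Fadd line and 0.213, 0.29 and 0.13 for the Casp8 line. Between the put-back groups they were 0.298, 0.133 and 0.228, so such deviation was not confined to a line. Between the knockout groups they were -0.223, 0.078 and -0.336. Slfn8 did not follow pairing by number in either line. Its replicate 1 was highest in the Fadd/Mlkl knockout and lowest with Fadd put back. In the Casp8 line its replicate 1 was lowest in the knockout and highest with Casp8 put back. What a number marks is not in the labels. The members and lists were chosen with earlier results of these data known. Text names all members, called or lowest-p genes of the interferon lists, called and nearest neighbours (1 is not reported here), and the 3 most correlated genes per member.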

Additional observations from a re-analysis of the deposited data

How the results depend on the processing

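Of 346 values of single Schlafen genes under other settings, 295 kept their direction and their side of the threshold, 21 lost a call, 19 gained one and 11 changed sign. In the Fadd line the number of Schlafen genes called was 0 with the chosen settings, 2 without a low-count filter, 2 in DESeq2 and 1 in limma-voom, settings that called 1.13%, 3.68% and 1.22% of all genes tested. For the Casp8 line it was 0, and 1 in DESeq2, which called 0.748%. Between the knockout groups it was 1, and 2 without the filter, in DESeq2, in limma-voom and without all replicate 1 libraries, settings that called 6.69%, 14%, 8.68% and 41.5% of all genes. Between the put-back groups it was 0, and 1 in DESeq2 and 3 without all replicate 1 libraries, where 11% and 33.5% of all genes were called. For the average of both lines it was 1, and 2 without the filter, in DESeq2 and without all replicate 1 libraries, and 0 in limma-voom, with a replicate block and with a replicate block within each line. The first 3 of these settings called 0.654%, 3.11% and 10.9% of all genes. The replicate block changed no other Schlafen call. For the difference between lines it was 0, and 1, Slfn8 lower, without all replicate 1 libraries, where 11.2% of all genes were called. Leaving out each library in turn gave 0 to 2 Schlafen genes between the knockout groups and 0 to 2 for the average of both lines, and 0 to 0 in each line, for their difference and between the put-back groups. The Slfn8 call for the average was lost without any 1 of 9 libraries (adjusted p 0.0631 to 0.158) and held without replicate 1 of the Fadd put-back, Casp8/Mlkl knockout or Casp8 put-back group. The interferon genes called numbered 1 in the Fadd line, and 3 without the filter, 8 in DESeq2, 0 with the replicate block within each line, 0 with only the groups compared and 1 to 2 with each library left out. In the Casp8 line they numbered 0, and 9 in DESeq2, and 0 to 0 with libraries left out.

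All 11 changes of sign were in the Fadd line change minus the Casp8 line change. For Slfn8 this was -0.73 without replicate 1 of the Fadd/Mlkl knockout, -0.41 without replicate 1 of Fadd put back, -0.45 without replicate 1 of the Casp8/Mlkl knockout, -0.40 without replicate 1 of Casp8 put back and -2.19 without all of these. For Slfn9 it was -0.11 without replicate 1 of the Fadd/Mlkl knockout and -0.33 without all replicate 1 libraries. For Slfn2 it was -0.18 without replicate 1 of Fadd put back, -0.13 without replicate 1 of the Casp8/Mlkl knockout, -2.17 without replicate 2 of Casp8 put back, which leaves that group with no Slfn2 counts, and -0.47 without all replicate 1 libraries. With each library left out in turn this difference reached at most 0.56 for Slfn8, 0.63 for Slfn9 and 1.28 for Slfn2. Other causes were not tested. Depth limits Slfn1, Slfn3, Slfn4 and Slfn5, and Slfn2 outside the Fadd/Mlkl knockout.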
